A study of Mus musculus with 6 samples.

Results

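The RHOX genes are a family of homeobox transcription factor genes that lie side by side on the mouse X chromosome and are expressed mainly in reproductive tissues. The 9 members described here, Rhox1, Rhox5, Rhox6, Rhox8, Rhox9, Rhox10, Rhox11, Rhox12 and Rhox13, were found by matching the identifiers of the deposited table to these symbols, and all 9 were present among its 57170 identifiers. They are the single-copy members of a cluster of 34 RHOX genes with symbols, whose other members belong to the multi-copy Rhox2, Rhox3, Rhox4 and Rhox7 subfamilies. RNA came from testes of mice at postnatal day 5. The WT group holds 2 wild-type libraries (WT-1, WT-2) and the sKO group 4 libraries (sKO-1 to sKO-4) from mice with a conditional knockout of Mdm2, the ubiquitin ligase gene that restrains p53, in germ cells before meiosis. The sources used here do not give the Cre driver, the floxed allele, the strain or whether a library is 1 animal. The tests therefore rest on library-to-library spread, which may be technical.

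Homeobox proteins bind DNA through a homeodomain and control the transcription of other genes. In the testis, Rhox5 (also called Pem) is known as an androgen-responsive gene of Sertoli cells, the somatic nurse cells of the seminiferous cords, and Rhox8 as another Sertoli cell gene. Rhox10 is known from spermatogonia, the mitotic germ cells, where it acts in the founding of spermatogonial stem cells, and Rhox13 from germ cells exposed to retinoic acid, the signal for spermatogonia to differentiate. Rhox5 and Rhox8 are therefore called the Sertoli members and Rhox10 and Rhox13 the germ cell members, from this background and not from these libraries. The other 5 were given no class.

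The libraries held 17990800 to 18394400 expected counts each. Mdm2 was at 67.2 and 75.9 CPM (counts per 1000000 of the TMM-scaled library size) in WT and at 37.6 to 47.3 CPM in the libraries labelled sKO (log2 fold change −0.74, SE 0.11, edgeR adjusted p = 0.0241). The libraries were divided by their sign on the first principal component (38.1% of the variance) into a pair of subsets that no label names. Subset 1 held WT-1 with the first and second sKO libraries, and subset 2 held WT-2 with the other sKO libraries. WT-2 was at 13.8 on this component, between sKO-2 (−20.8) of subset 1 and sKO-4 (36.7) of subset 2. Of the 17707 genes tested, 2.43% passed at an edgeR adjusted p under 0.05, of which 408 (2.30%) were lower and 22 (0.124%) higher in sKO. The summed level of 15 pan-germ-cell markers, genes expressed throughout the germ line, was 561 to 805 CPM in WT and 103 to 172 CPM in sKO, and that of 18 Sertoli cell markers was 6090 to 7125 CPM in WT and 7127 to 7795 CPM in sKO. In bulk RNA, fewer cells of a type and less RNA per cell cannot be told apart.

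The 250 bases before the RefSeq transcript start are shown for the Sertoli member Rhox5 and the germ cell members Rhox10 and Rhox13, whose values were lower in every sKO library than in both WT libraries, in the build GRCm38.p6. Entries were found for 6 of the 9 members, all but Rhox6, Rhox8 and Rhox9. Capitals mark matches on either strand to CACGTG (the E-box that MGA and MAX bind), GCGGGA (E2F), AGAACA (a hexamer of steroid hormone response elements) and GATAA (GATA factors).
Rhox5, chrX:37754358-37754607, plus strand: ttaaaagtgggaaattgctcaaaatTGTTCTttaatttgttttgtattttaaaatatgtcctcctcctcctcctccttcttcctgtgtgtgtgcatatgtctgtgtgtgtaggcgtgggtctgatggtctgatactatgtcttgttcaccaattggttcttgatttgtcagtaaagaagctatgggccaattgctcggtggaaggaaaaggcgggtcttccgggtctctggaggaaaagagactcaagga
Rhox10, chrX:38066225-38066474, plus strand: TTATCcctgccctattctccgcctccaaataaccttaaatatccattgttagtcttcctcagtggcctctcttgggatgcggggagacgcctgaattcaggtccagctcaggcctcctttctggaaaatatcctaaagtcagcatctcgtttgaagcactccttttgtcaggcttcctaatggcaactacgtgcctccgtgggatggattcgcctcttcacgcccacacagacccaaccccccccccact
Rhox13, chrX:38120590-38120839, plus strand: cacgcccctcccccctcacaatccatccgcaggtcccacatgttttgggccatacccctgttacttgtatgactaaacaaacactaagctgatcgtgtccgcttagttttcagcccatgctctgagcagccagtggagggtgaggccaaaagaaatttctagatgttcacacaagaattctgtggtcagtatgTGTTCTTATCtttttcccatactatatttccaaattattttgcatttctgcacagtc
The Rhox5 window holds 1 match to AGAACA, the Rhox10 window 1 to GATAA, and the Rhox13 window 1 to each, which overlap. Over all 32851 windows of this length, AGAACA occurs in 16.1% and GATAA in 22.6%. None of the 6 member windows holds CACGTG (6.02% of all windows) or GCGGGA (16.9%). The Rhox10 window has 8 CG dinucleotides and those of Rhox5 and Rhox13 have 4 each, beside a median of 6 (quartiles 2 and 16) over all windows. Such a match is a description of letters and not a site. The first GENCODE start of Rhox5 lies 50.2 kb downstream of the RefSeq start used here, and that of Rhox13 lies 0.379 kb downstream, and the counts do not tell which start was used.

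Rhox8 supplied nearly all RHOX transcripts of the testis at this age. It was at 207 CPM in WT-1 and 231 CPM in WT-2, and at 245 CPM in sKO-1, 262 CPM in sKO-2, 244 CPM in sKO-3 and 242 CPM in sKO-4. All 4 sKO libraries lay above both WT libraries, by a small margin. Its counts were 91.2% and 93.1% of all counts of the 34 RHOX genes in WT and 97.0% to 98.0% in sKO. Per kilobase of annotated exon, the WT level was 182 ± 14.2 CPM for Rhox8 (SD, n = 2), 3.70 ± 0.638 for Rhox10, 1.88 ± 1.11 for Rhox13, 1.498 ± 0.0434 for Rhox1 and 1.36 ± 0.0228 for Rhox5. Rhox8 and Rhox10 thus stood first and second beyond their spread, Rhox13 spanned the levels of Rhox1 and Rhox5, and Rhox5, the other Sertoli member, was the lowest of the 5 tested genes. In sKO the order per kilobase was Rhox8 (206 ± 7.41, SD, n = 4), Rhox1 (0.703 ± 0.225), Rhox5 (0.701 ± 0.0966), Rhox13 (0.522 ± 0.177) and Rhox10 (0.380 ± 0.155), and the lower 4 overlapped their neighbours.

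**Figure D1:**
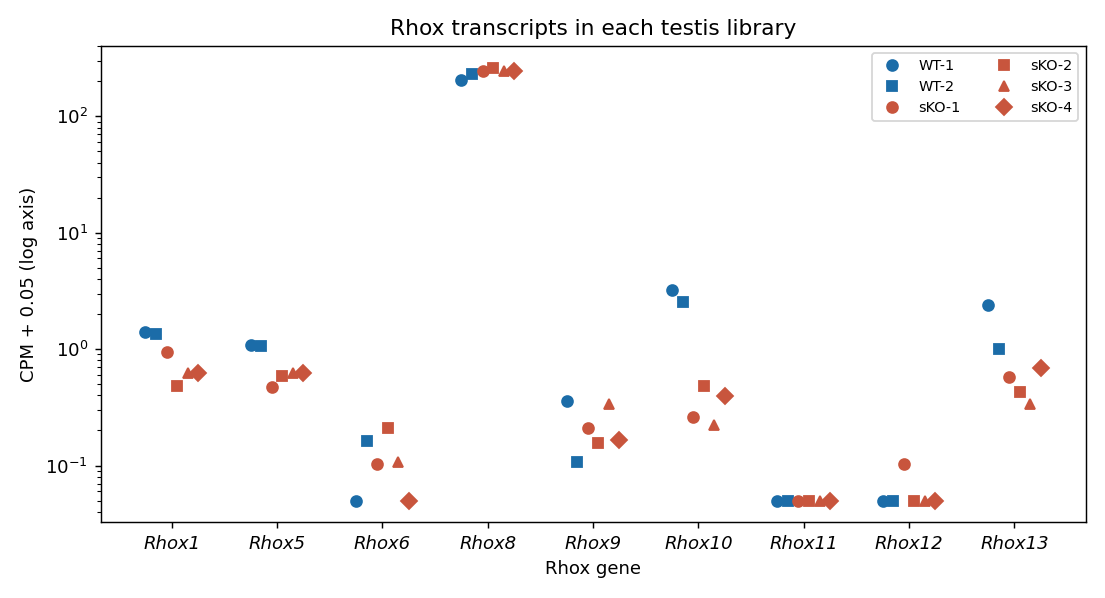
CPM of each of the 9 RHOX genes in each library, with 0.05 added, on a log axis; blue points are WT and red points sKO libraries. Rhox8 stands at 207 to 262 CPM in all 6 libraries, while no other member passes 3.17 CPM, and Rhox11 is at 0 throughout.

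Rhox10 was the one member that passed the test, and it fell in sKO. It was at 3.17 CPM in WT-1 (61 counts) and 2.48 CPM in WT-2 (44 counts), and at 0.212 CPM in sKO-1 (4 counts), 0.428 CPM in sKO-2 (8 counts), 0.173 CPM in sKO-3 (3 counts) and 0.347 CPM in sKO-4 (6 counts). The groups did not overlap, and the highest sKO library was far below the lowest WT library. Its change on the log2 scale was −3.25 (SE 0.41), with an edgeR adjusted p of 0.0138. Pooled over libraries, the CPM in sKO was 0.103 of that in WT (exact 95% interval 0.0609 to 0.165, which covers counting error only). Without WT-1 the call ended, at −3.06 (adjusted p = 0.176). Over the alternatives that kept the gene, its adjusted p ran from 8.34e-06 (DESeq2) to 0.176.

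Rhox13, the other germ cell member, was lower in every sKO library but did not pass the test. It was at 2.34 CPM in WT-1 (45 counts) and 0.958 CPM in WT-2 (17 counts), and at 0.529 CPM in sKO-1 (10 counts), 0.375 CPM in sKO-2 (7 counts), 0.289 CPM in sKO-3 (5 counts) and 0.636 CPM in sKO-4 (11 counts). The 2 WT libraries differed more from each other than WT-2 did from the highest sKO library. Its change on the log2 scale was −1.84 (SE 0.49, edgeR adjusted p = 0.130), with a 95% interval of −2.98 to −0.70. Without WT-1 it was −1.06 and without WT-2 −2.37. With a term for the library subset it was −1.78 (adjusted p = 0.0332), past the threshold, and its adjusted p ran from 0.0332 to 0.709 over the alternatives that kept it.

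Neither Sertoli member passed the test, and their values lay on opposite sides of 0. Rhox8 differed by 0.18 on the log2 scale (SE 0.09, edgeR adjusted p = 0.438), with a 95% interval of −0.02 to 0.38, and by 0.02 when libraries were scaled to the Sertoli cell markers. Rhox5 was at 1.04 CPM in WT-1 (20 counts) and 1.01 CPM in WT-2 (18 counts), and at 0.423 CPM in sKO-1 (8 counts) and 0.536, 0.578 and 0.578 CPM in sKO-2, sKO-3 and sKO-4 (10 counts each). All 4 sKO values lay below both WT values, at close to 0.513 of the WT level when pooled (exact 95% interval 0.318 to 0.826, counting error only). The log2 fold change of Rhox5 was −0.95 (SE 0.37, 95% interval −1.80 to −0.10), and it did not pass the test (adjusted p = 0.315). Within a library the log2 ratio of Rhox5 to Rhox8 was −7.49 and −7.68 in WT and −8.84, −8.66, −8.47 and −8.46 in sKO, so the groups did not overlap. That ratio was chosen after its values were seen and was not tested.

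**Figure D2:**
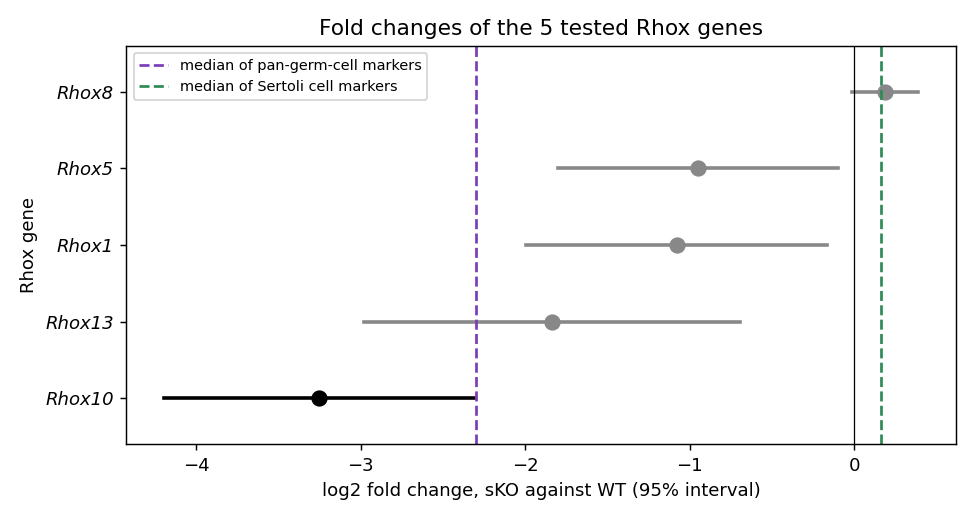
Log2 fold change of sKO against WT with its 95% interval for the 5 tested RHOX genes; black marks the gene with an edgeR adjusted p under 0.05 and grey the others. The dashed lines are the medians of the pan-germ-cell markers (−2.30) and of the Sertoli cell markers (0.16); Rhox8 lies next to the second line and Rhox5 between them.

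Rhox1, a member with no class here, had values close to those of Rhox5. It was at 1.35 CPM in WT-1 (26 counts) and 1.30 CPM in WT-2 (23 counts), and at 0.900 CPM in sKO-1 (17 counts) and 0.428, 0.578 and 0.578 CPM in sKO-2, sKO-3 and sKO-4 (8, 10 and 10 counts). Every sKO library lay below both WT libraries, with sKO-1 nearest to them. Its log2 fold change was −1.08 (SE 0.39, edgeR adjusted p = 0.280).

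The other 4 members were removed by the filter on low counts. Rhox9 had 6 and 1 counts in WT and 2 to 5 in sKO, Rhox6 had 0 and 2 counts in WT and 0 to 3 in sKO, and Rhox12 had 1 count in all, in sKO-1. Rhox11 had none in any library, which allows up to 0.156 to 0.173 CPM at a limit of 3 counts per library. At this depth no difference in these 4 genes was detectable. With no count filter the adjusted p was 0.956 for Rhox6, 0.971 for Rhox9 and 0.795 for Rhox12. Rhox6 and Rhox9 are known from placenta and early germ cells. Of the 50-base words of the Rhox6 transcript, 16.5% also occur in Rhox9. The expected counts of both were whole in every library, so they show no read divided between genes. Whether each read went to the right gene was not tested.

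Of the 9 members, 5 passed the filter on low counts, and 1 was lower and 0 were higher by the edgeR test (2.43% of all genes tested in either direction). With the library subset term 2 were lower, Rhox10 and Rhox13 (8.65% of all genes), and 0 higher (4.97%). All 4 sKO libraries lay below both WT libraries in 4 members (13.3% of all genes tested) and above them in 1 (9.79%). Rhox10 and Rhox13 passed the filter through their WT counts, so the count of members lower supports nothing by itself. In simulated counts of 17707 genes the same test called 28 of 64 genes changed 2-fold and 50 of 68 changed 4-fold, so differences of the size measured for Rhox1 and Rhox5 could be missed. The rate for genes with as few counts as Rhox1 and Rhox5 was not read separately. Within subset 1 and subset 2 the differences in mean log2 CPM were −2.99 and −2.83 for Rhox10, −2.14 and −0.96 for Rhox13, −0.99 and −1.02 for Rhox1, −0.97 and −0.70 for Rhox5, and 0.29 and 0.08 for Rhox8.

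The contrast of Sertoli with germ cell members was also read within libraries, where scaling cancels. The log2 ratio of Rhox8 to Rhox10 was 5.98 and 6.48 in WT and 9.57, 8.93, 9.75 and 9.05 in sKO, a mean difference of 3.10. That of Rhox5 to Rhox10 was −1.51 and −1.20 in WT and 0.73, 0.26, 1.28 and 0.59 in sKO, a mean difference of 2.07, so Rhox10 had more counts than Rhox5 in WT and fewer in sKO. That of Rhox8 to Rhox13 was 6.40 and 7.76 in WT and 8.58, 9.08, 9.26 and 8.35 in sKO, a mean difference of 1.74. In these 3 pairs every sKO library lay above both WT libraries, and a two-sided exact permutation test over the 15 assignments gave p = 0.0667 each (0.0889 adjusted over the 4 pairs), the smallest this design allows. The ratio of Rhox5 to Rhox13 was −1.09 and 0.07 in WT and −0.26, 0.41, 0.79 and −0.12 in sKO. There the groups overlapped, and the mean difference of 0.71 had an exact p = 0.267 (0.267 adjusted). Without WT-1 that difference was 0.13 and without WT-2 1.30, and that of Rhox8 to Rhox13 was 1.06 and 2.42.

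**Figure D3:**
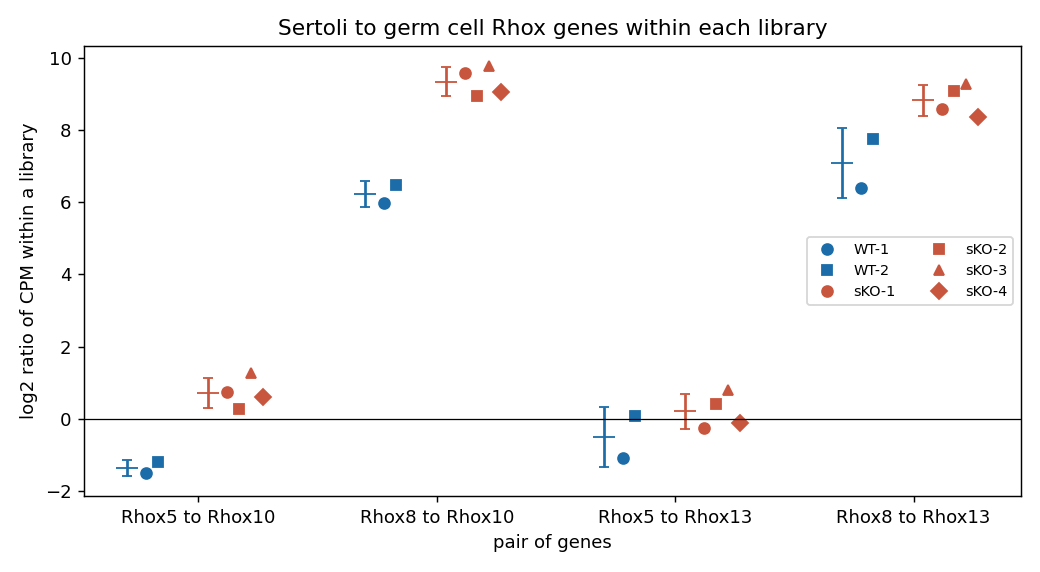
Log2 ratio of the CPM of a Sertoli member to that of a germ cell member within each library (prior count 2), with the mean and SD of each group beside the points. WT and sKO libraries are apart for 3 pairs and overlap for Rhox5 to Rhox13.

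The levels were set beside the markers of each cell type, as a description with no test. Rhox8 was at 33.2 ± 1.09 CPM per 1000 CPM of the Sertoli cell markers in WT (SD, n = 2) and at 33.5 ± 2.49 in sKO (SD, n = 4), and its groups overlapped. Rhox5 was at 0.171 and 0.142 CPM per 1000 CPM of the same markers in WT and at 0.0590 to 0.0758 in sKO, with no overlap. Rhox13 was at 2.90 and 1.71 CPM per 1000 CPM of the pan-germ-cell markers in WT and at 2.81 to 3.69 in sKO, with overlap. Rhox10 was at 3.94 and 4.42 per 1000 CPM of these markers in WT and at 1.28, 3.74, 1.69 and 2.01 in sKO-1 to sKO-4. All 4 sKO values of Rhox10 were thus lower than both WT values, with sKO-2 close to WT-1, and each rests on 3 to 8 counts. Rhox1 and Rhox5 were at 1.68 and 2.31, and at 1.29 and 1.81, per 1000 CPM of the pan-germ-cell markers in WT, and at 3.35 to 5.62 and 2.57 to 5.62 in sKO. On this scale both were thus higher in every sKO library than in both WT libraries, on 8 to 17 counts per sKO library. The marker sum itself was 561 to 805 CPM in WT and 103 to 172 CPM in sKO. Any gene that fell clearly less than this sum comes out higher here, so the scale says no more of these genes. The part of the germ cell markers in the values of Rhox10, Rhox13, Rhox1 and Rhox5 was not tested.

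**Figure D4:**
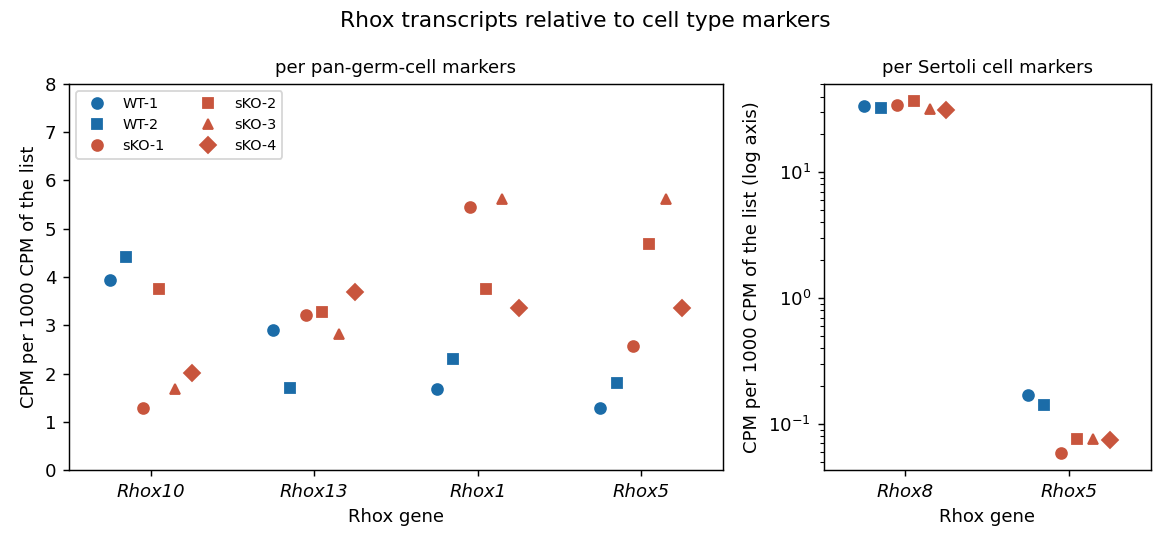
CPM of RHOX genes per 1000 CPM of the summed pan-germ-cell markers (left, linear axis) or Sertoli cell markers (right, log axis) in each library. Rhox8 keeps to 31.1 to 36.7 in all 6 libraries on the right, while Rhox5 is at 0.142 or more in WT and at 0.0758 or less in sKO.

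The multi-copy RHOX genes were read beside the 9 members. Of 23 matched from the list of other RHOX cluster genes, 5 passed the filter, some of them only through their WT counts, and 0 passed the edgeR test in either direction. With the library subset term 1 was lower, Rhox2e (adjusted p = 0.0415, beside 8.65% of all genes lower), named after its value was seen. Single copies did not all lie on the same side. Rhox4b was at 0.0282 CPM in WT and 0.120 CPM in sKO on average, and Rhox3c, Rhox3f and Rhox3g were at 0 in all libraries. Of the tested multi-copy RHOX genes, the most abundant were Rhox2a (log2 fold change −0.94, edgeR adjusted p = 0.407) and Rhox7b (−1.38, adjusted p = 0.228). Over all genes and not only RHOX genes, 2317 of 17707 had an unadjusted p under 0.05 in edgeR and 2234 of 32531 in DESeq2. RSEM divides reads between near-identical copies, and the summed expected counts of the Rhox2 and Rhox4 subfamilies were within 0.02 of a whole count in 12 of 12 cases, so the sums are given. The sums of Rhox7 (40.95 and 26.87 counts in WT) and Rhox3 (4.68 and 7.41 counts in WT) were not whole. They may therefore hold parts of reads divided with genes outside these subfamilies, and Rhox7b overlaps Rhox8 in RefSeq gene models. The 8 Rhox2 genes together were at 6.70 and 5.86 CPM in WT and 2.75, 1.77, 1.91 and 3.52 CPM in sKO-1 to sKO-4. The 8 Rhox4 genes were at 2.65 and 3.38 CPM in WT and 1.27, 0.696, 0.578 and 0.982 CPM in sKO. Those of Rhox7 (2 genes) were at 2.13 and 1.51 CPM in WT and 0.514 to 1.04 CPM in sKO, and those of Rhox3 (7 genes) at 0.243 and 0.417 CPM and at 0 to 0.116 CPM. In each subfamily all sKO libraries lay below both WT libraries, beside 13.3% of all genes tested. The Rhox3 sums rest on at most 7.41 counts in a library. All RHOX genes other than Rhox8 summed to 19.9 and 17.1 CPM in WT and to 5.24 to 7.39 CPM in sKO. These sums were formed after the values were seen and were not tested.

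**Figure D5:**
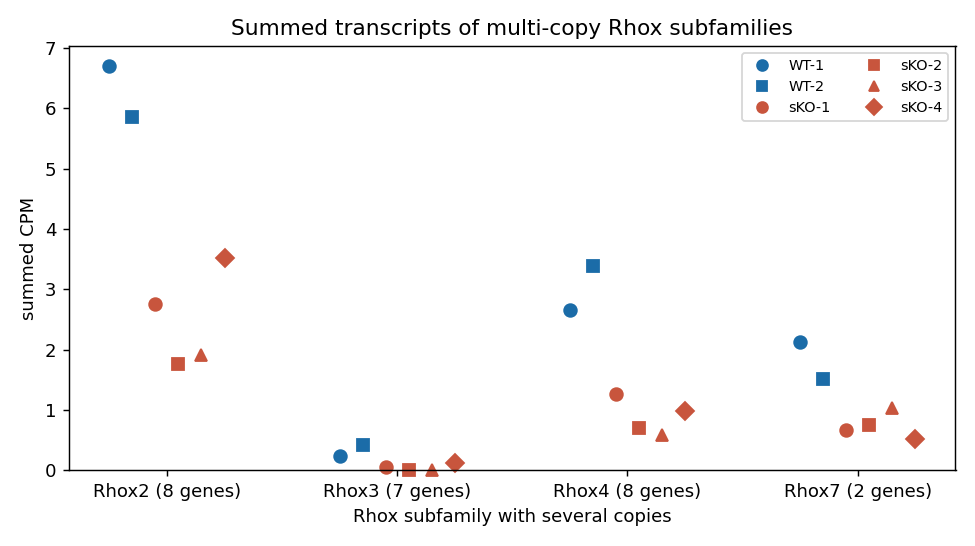
Summed CPM of the genes of each multi-copy RHOX subfamily in each library, on a linear axis from 0. The Rhox2 sum is 5.86 or more in WT and 3.52 or less in sKO, and WT and sKO libraries are apart in the other 3 subfamilies as well. Of all single genes tested, 13.3% had every sKO library below both WT libraries.

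Genes of the cells and pathways around the RHOX members were read from the same fit, in which 2.30% of all genes were lower and 0.124% higher. Of 14 tested pan-germ-cell markers 13 were lower and 0 higher (median log2 fold change −2.30), among them the RNA-binding protein gene Dazl (−2.34), Rbm44 (−2.71) and the co-chaperone gene Fkbp6 (−2.06), each with an edgeR adjusted p of 0.00929. Of 11 X-linked genes known from spermatogonia, which share the chromosome of the RHOX cluster, 8 were lower and 0 higher (median −2.42), among them the polycomb gene Scml2 (−1.88), the ubiquitin protease gene Usp26 (−2.36) and the RNA export gene Nxf2 (−2.66). Of 13 tested genes that mark undifferentiated spermatogonia, 5 fell and 0 rose (median −0.87), among them Lin28a (−2.32), Sox3 (−3.95) and Zbtb16 (−2.25). Of 16 genes of differentiating spermatogonia and retinoic acid response 9 were lower and 0 higher (median −1.91), among them Stra8 (−3.87), Scml2 and Sohlh1 (−3.07). Values above 0, none past the test, were those of Cyp26b1 (0.46), Rarb (0.46), Ccnd2 (0.15) and Prdm9 (0.04). The sum of this last list overlapped between the groups (1553 to 1571 CPM in WT, 1322 to 1713 CPM in sKO). Its largest terms were Ccnd2 (889 and 895 CPM in WT, 743 to 1127 CPM in sKO) and Cyp26b1 (293 and 360 CPM in WT, 392 to 482 CPM in sKO). The sum therefore says little of the genes of the list that were lower. The log2 fold change of Rhox10 (−3.25) was below the medians of all 4 lists, but rests on 3 to 8 counts per sKO library. Its interval of −4.19 to −2.31 held the median of the X-linked list (−2.42). The upper end lay next to the median of the pan-germ-cell markers (−2.30). Single genes of the lists were lower than Rhox10, among them Sox3 (−3.95) and Stra8 (−3.87). Whether Rhox10 fell further than the genes of these lists was not tested. Over all genes tested, 1 was lower without WT-1, 193 without WT-2 and 103 to 225 without an sKO library, against 408 with all 6. Without either WT library the WT group holds 1 library, which is then assumed to vary like the sKO libraries. With the library subset term the counts lower were 14, 9, 10 and 11 in the order of the lists above, beside 8.65% of all genes. With that term 1 was higher in the last list, Cyp26b1, beside 4.97% of all genes.

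Of 12 tested regulators reported to silence the RHOX cluster, 3 were lower and 0 higher (median −0.30), beside 2.30% and 0.124% of all genes. They were the maintenance DNA methyltransferase Dnmt1 (−0.52, edgeR adjusted p = 0.0328), the chromatin remodeller Hells (−0.80, 0.0354) and the de novo DNA methyltransferase Dnmt3b (−0.96, 0.0390). Germ cell markers were lower in the same 4 libraries, and their part in these values was not tested. With the library subset term 8 were lower, beside 8.65% of all genes.

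Sertoli cell genes were read beside Rhox5 and Rhox8. Of 18 tested Sertoli cell markers 0 were lower and 1 was higher, beside 2.30% and 0.124% of all genes. The higher gene was Amh, which encodes anti-Müllerian hormone (log2 fold change 0.45, edgeR adjusted p = 0.0429). The list ran from −0.37 to 0.51, with 6 higher under the library subset term, beside 4.97% of all genes. Of 9 tested genes known to respond to androgen in Sertoli cells, the class in which Rhox5 is placed, 0 passed in either direction, and the median was 0.15. The most abundant was the tight junction gene Cldn11 (−0.44, adjusted p = 0.0714).

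Markers of the other cells of the tissue had the following values. None of 8 Leydig cell markers passed (median 0.26, with Hsd3b1 at 0.26 and Hsd17b3 at 0.20), nor any of 7 endothelial markers (median 0.22, Cdh5 0.27, Eng 0.22), 7 macrophage markers (median −0.09, Mrc1 −0.18, Csf1r −0.19) or 5 erythroid markers (median 0.49, Hbb-bs 0.50, Hba-a1 0.69). Of 6 peritubular myoid cell markers 1 was lower, the calponin gene Cnn1 (−1.73, edgeR adjusted p = 0.0323), beside 2.30% of all genes. With the library subset term 3 myoid cell markers were lower, beside 8.65% of all genes. Higher with that term were 2 erythroid markers (Hba-a1 and Hbb-bs) and 1 endothelial marker (Cdh5), beside 4.97% of all genes. The summed erythroid markers were at 401 to 404 CPM in WT and 487 to 709 CPM in sKO. The epididymis is another site known for Rhox5. Of 5 tested epididymis and rete testis markers none passed (median 0.27, Hoxd10 0.27, Krt8 0.35), and the sum of all 12 was 35.1 and 52.9 CPM in WT and 39.8 to 60.2 CPM in sKO. Defb41, Lcn5 and Crisp1, known from the epididymis, were at 0 in all libraries, and Adam7 was at 0.0519 CPM in WT-1 and at 0 elsewhere. The part of such cells in the values of Rhox5 was not tested.

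The genes whose log2 CPM ran most closely with a member over the 6 libraries were taken among 11108 genes of at least 5 CPM, as a description in which all points share the genotype split. For Rhox5 they were Nsmce1 (Pearson r = 0.996), Shc4 (0.994) and Nkain1 (0.993). For Rhox8 they were Fam13a (0.996), Lhx9 (0.996) and Ppp4r4 (0.994). For Rhox10 they were Lsm8 (0.997), Polr2e (0.996) and Uba1y (0.995), and for Rhox13 Dmtf1 (0.992), Sf3b3 (0.990) and Ints11 (0.989). The best of 11108 genes over 6 libraries can reach such r by selection alone. In the same order, log2 fold changes were −0.17, −0.47 and −1.24 beside Rhox5 (−0.95) and 0.36, 0.42 and 0.30 beside Rhox8 (0.18). They were −0.24, −0.45 and −1.56 beside Rhox10 (−3.25) and −0.10, −0.19 and −0.36 beside Rhox13 (−1.84).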

How the data were processed

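Polyadenylated RNA was sequenced from 6 whole-testis libraries, grouped by their titles. The authors deposited expected counts for 57170 gene identifiers; per the submitters' processing notes fastp, STAR, RSEM and the build mm39 were used, while the sources used here do not give their roles, versions, annotation or use of strand. The series' design text names 3 replicates per group, while the labels give 2 WT and 4 sKO, and the labels were used. Replicates of a group differed by more than sampling noise, so each library counted once. Chi-square per gene was 6.83 for sKO-1 with sKO-2 and 4.08 for sKO-3 with sKO-4. It was 20.3 to 24.7 for the other pairs of sKO libraries and 22.1 for the WT pair. The sKO libraries thus formed close pairs, and whether the libraries of a pair are independent was not tested.

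Symbols came from a GRCm38 table (GENCODE M21), which matched 51742 identifiers (90.5%). That build is not the one of the counts, so it served only for names, exon lengths, neighbours and promoter sequences (RefSeq, GRCm38.p6). Of the transcripts of the 9 members, 50-base words were shared with other genes in Rhox6, Rhox9 (6.28%) and Rhox8 (4.90%) and in no other member. In RefSeq gene models Rhox7b overlaps Rhox8 and Gm39506 overlaps Rhox13.

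Expected counts were rounded, filtered with filterByExpr (minimum count 10), scaled by TMM and tested with edgeR 4.0.16 (glmQLFit, glmQLFTest, two-sided) in R 4.3.3, with Benjamini-Hochberg adjustment over 17707 genes and a threshold of 0.05. SE is the size of the log2 fold change over the root of F, and intervals are 95%. Log2 CPM ratios used a prior count of 2. Depth was 17990800 to 18394400 counts per library, so members other than Rhox8 rest on at most 61 counts each and counting error is large. Steps were tested on simulated data. Alternatives used DESeq2 1.42.0, limma 3.58.1 (voom), other scalings and filters, left-out libraries, a subset term and a replicate block.

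The members and gene lists were chosen with earlier results of these data known. All members were named, with up to 3 members of each list with the smallest adjusted p or, with none under 0.05, the 2 most abundant, and the 3 genes most correlated with Rhox5, Rhox8, Rhox10 and Rhox13. Some genes that this rule names are not reported here.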

Additional observations from a re-analysis of the deposited data

Results flagged for a closer look

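In 13 groups of 4 sKO values (9 genes and 4 ratios), 2 held a library that stood apart from the other 3, where chance alone gives about 1 in 20. Rhox8 was at 262 CPM in sKO-2, above 242 to 245 CPM in the other sKO libraries. Rhox12 was at 0.0529 CPM in sKO-1, which is 1 count, and at 0 in the others.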

How the results depend on the processing

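The direction of each of the 5 tested members and of the 4 ratios was the same under every alternative that gave a value. The count of members lower, 1 with all libraries, was 0 to 1 with single libraries left out (0 without WT-1), 0 with at least 1 CPM in 4 libraries, a filter that removed Rhox1, Rhox5, Rhox10 and Rhox13, and 2 with the library subset term, which added Rhox13. That term was picked from these libraries, so its p-values may be too small. Over all genes, 22 higher and 408 lower became 12 and 707 with Sertoli library sizes, 80 and 646 with DESeq2, and 880 and 1531 with the subset term. Single left-out libraries gave 2 to 7 higher and 1 to 225 lower. Sertoli library sizes shifted the median of all genes by −0.175, and Rhox8 was then at 0.02. The cause of these changes was not tested.

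The numbers in the titles share 2 values between the groups, and the differences of libraries 1 and 2 in WT and sKO had a correlation of −0.00909 over genes, so nothing shows that they pair libraries. With the replicate block over these 4 libraries 268 genes were lower, against 187 lower and 9 higher in the same libraries without it (chosen after seeing the data). In the replicate block Rhox10 was at −3.14 (adjusted p = 0.0405), and the 4 ratios differed by 3.02 (Rhox8 to Rhox10), 1.85 (Rhox5 to Rhox10), 1.75 (Rhox8 to Rhox13) and 0.58 (Rhox5 to Rhox13), values with no test. The block changed no call of a member. Rhox6, Rhox9 and Rhox12 have at most 6 counts in a library and Rhox11 has none.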
